A study of Mus musculus with 6 samples.

Results

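Transcript levels of 31 cell cycle and DNA replication genes were followed in mouse embryonic stem cells (ESCs) with and without the RNA-binding protein gene Hnrnpf. The genes were taken by symbol from a fixed list, all 31 were found among the 25170 symbols of the expression table, and all passed the filter on low values (a mean of at least 1 FPKM). They fall into 12 replication genes (Mcm2 to Mcm7, Cdc6, Cdt1, Gins2, Pcna, Rrm2 and Tyms) and 19 mitotic genes. RNA-seq was made from E14 cells, an established mouse ESC line grown in serum medium. There were 4 groups: wild type with leukemia inhibitory factor (LIF, which keeps mouse ESCs undifferentiated; 1 library), Hnrnpf knockout with LIF (2 libraries), wild type 4 days after LIF removal (1 library) and Hnrnpf knockout 4 days after LIF removal (2 libraries). The knockout libraries are called 1 and 2 here, by the number in their labels. Which part of Hnrnpf was deleted, whether a number marks 1 clone in both media and whether libraries came from separate cultures are not in the labels. The p-values therefore measure only how far these libraries spread, and that spread may be technical. Knockout libraries of the same number deviated together from their group means (Pearson correlation 0.366 over all tested genes and 0.82 over the 31). The tests count them as separate libraries, so p-values of the knockout effect may be too small. A single wild type library per medium has no replicate error of its own.

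Before S phase, ORC, Cdc6 and Cdt1 load the ring of Mcm2 to Mcm7 at replication origins (licensing), and GINS and Cdc45 turn the ring into an active helicase. Cyclin A and cyclin B with Cdk1 drive cells into mitosis, Aurora and Polo-like kinases build the spindle, and the anaphase-promoting complex with Cdc20 releases the chromatids by degrading securin and cyclin B. Genes of the first kind are classic targets of E2F factors, while many mitotic genes carry a CHR element (cell cycle genes homology region, read by the MuvB core) beside CCAAT boxes bound by NF-Y. Mouse ESCs have a short G1 phase and keep many of these genes high through the cycle.

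Promoter sequences are shown because the replication and mitotic genes differed in these letters, a property that did not enter the choice of genes. RefSeq promoters (GRCm38.p6, the assembly of mm10), from 250 bases before to 50 bases after a start site, were matched by symbol for 26 of the 31 genes, and not for Mcm4, Gins2, Ccna2, Aurkb and Kif20a. Both strands were searched for the NF-Y box CCAAT, for the CHR letters TTTGAA or TTTAAA, and for the E2F letters TTTCCCGC or TTTCGCGC or TTTGCCGC or TTTGGCGC. The NF-Y box and a CHR stood together in 13 of 16 mitotic promoters (81.2%), in 3 of 10 replication promoters (30.0%) and in 10.6% of the 9459 tested genes with a promoter. An E2F word stood in 6 of 10 replication promoters (60.0%), in 1 of 16 mitotic promoters (6.25%) and in 5.06% of the tested genes. Over all 27025 genes with a promoter of this length, the shares were 41.1% for the NF-Y box, 30.6% for the CHR letters, 2.6% for the E2F words and 13.4% for the first pair together. In the windows below, motif letters of either strand are in capitals, and the start site is base 251.
Mcm6 (chr1:128359656-128359955, minus strand): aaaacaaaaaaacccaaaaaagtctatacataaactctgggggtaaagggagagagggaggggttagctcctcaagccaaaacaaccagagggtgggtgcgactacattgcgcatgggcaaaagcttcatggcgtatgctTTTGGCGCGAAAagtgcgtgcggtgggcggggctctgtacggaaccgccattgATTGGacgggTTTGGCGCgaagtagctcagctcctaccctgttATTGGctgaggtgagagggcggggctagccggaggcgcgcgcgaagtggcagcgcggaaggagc
Mcm7 (chr5:138171834-138172133, minus strand): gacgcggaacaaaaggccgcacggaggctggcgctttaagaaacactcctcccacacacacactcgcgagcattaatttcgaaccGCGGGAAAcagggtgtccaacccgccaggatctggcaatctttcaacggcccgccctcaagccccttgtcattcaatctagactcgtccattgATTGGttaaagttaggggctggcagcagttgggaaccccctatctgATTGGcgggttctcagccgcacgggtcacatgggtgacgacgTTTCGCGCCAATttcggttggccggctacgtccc
Ccnb1 (chr13:100786437-100786736, minus strand): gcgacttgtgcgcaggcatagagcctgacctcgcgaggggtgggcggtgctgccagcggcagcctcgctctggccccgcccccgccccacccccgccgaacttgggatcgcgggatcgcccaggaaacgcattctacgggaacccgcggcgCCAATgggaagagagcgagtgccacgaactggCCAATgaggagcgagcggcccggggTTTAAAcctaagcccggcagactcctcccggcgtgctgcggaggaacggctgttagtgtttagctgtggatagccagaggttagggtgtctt
Kif11 (chr19:37376132-37376431, plus strand): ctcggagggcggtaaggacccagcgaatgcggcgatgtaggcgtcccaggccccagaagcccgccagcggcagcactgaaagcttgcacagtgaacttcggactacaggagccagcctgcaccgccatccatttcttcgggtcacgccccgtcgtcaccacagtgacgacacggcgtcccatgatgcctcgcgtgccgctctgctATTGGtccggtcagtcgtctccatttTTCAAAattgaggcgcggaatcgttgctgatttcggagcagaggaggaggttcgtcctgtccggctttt
Mcm2 (chr6:88898731-88899030, minus strand): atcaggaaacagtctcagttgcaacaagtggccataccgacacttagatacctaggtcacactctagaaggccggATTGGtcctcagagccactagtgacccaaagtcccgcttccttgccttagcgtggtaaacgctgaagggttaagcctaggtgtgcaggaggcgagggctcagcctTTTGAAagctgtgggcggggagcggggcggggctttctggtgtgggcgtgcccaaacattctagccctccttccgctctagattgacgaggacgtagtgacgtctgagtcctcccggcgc
Birc5 (chr11:117848987-117849286, plus strand): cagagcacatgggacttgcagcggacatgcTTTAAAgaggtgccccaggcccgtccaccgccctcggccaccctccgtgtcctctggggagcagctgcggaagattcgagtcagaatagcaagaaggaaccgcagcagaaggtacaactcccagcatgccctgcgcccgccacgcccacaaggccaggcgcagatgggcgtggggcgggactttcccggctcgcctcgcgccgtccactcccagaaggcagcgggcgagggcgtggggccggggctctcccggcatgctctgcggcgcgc
Mcm6 and Mcm7 are replication genes with E2F words, and Ccnb1 and Kif11 show the mitotic pattern of NF-Y box and CHR. Mcm2 and Birc5, both called below, held no E2F word. The start site of the Mcm7 window lies 228 bases inside the annotated gene. Those of Aurka (316 bases), Cdc6 (442 bases) and Pttg1 (1482 bases) lie further inside, and the Pttg1 window held no motif. For 22 genes the start site lies within 150 bases of the annotated 5 prime end. In the Mcm7 window the last E2F word shares letters with a CCAAT box, the only such overlap between motif families in the windows of these genes. A match is a run of letters, not a site shown to be bound.

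Hnrnpf stood at 342 and 335 FPKM (fragments corrected for transcript length and for the library's mapped total) in the wild type libraries with and without LIF. Knockout libraries 1 and 2 held 98.7 and 37.1 FPKM with LIF, then 95.2 and 27.8 FPKM without it, so between 8.28% and 28.9% of the wild type level was still present. The 5 ESC markers (Pou5f1, Sox2, Nanog, Zfp42 and Esrrb) were each at 1 FPKM or more in all libraries, with sums from 2313 in wild type with LIF down to 1117 in a knockout library after LIF removal. Summed levels stayed low for 7 fibroblast markers (4.17 to 10.2 FPKM) and 5 endoderm markers (1.21 to 3.24 FPKM, Afp at 0 in a library of each group). The 4 trophoblast markers (Elf5 at 0 in a library of each group) summed to 0.584 FPKM in wild type and 2.59 to 5.62 FPKM in knockout cells with LIF. After LIF removal their sums were 4.38 FPKM in wild type and 6.02 to 10.9 FPKM in knockout cells. The 4 neural markers summed to 89.9 FPKM in wild type and 82.6 to 90.8 FPKM in knockout cells with LIF. After LIF removal they summed to 86.4 FPKM in wild type and 53.6 to 55.9 FPKM in knockout cells. Whether the mixture of cells changed was not tested. Depth, read from the steps between low values, ranged from 0.843 to 1.08 of that of the wild type library with LIF, and the number of reads behind a value is unknown.

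All 31 genes were well expressed, from 8.86 FPKM for Pttg1 in wild type cells without LIF to 410 FPKM for Ube2c, the ubiquitin-conjugating enzyme of the anaphase-promoting complex, in wild type cells with LIF. Ube2c was the highest of the 31 in each library. Pttg1 was the only one under 10 FPKM in any library. The knockout effect was estimated over both media with limma on log2(FPKM + 1), comparing 4 knockout with 2 wild type libraries, and a gene was called at a Benjamini-Hochberg adjusted p under 0.05 over all 11785 tested genes. Of the 31 genes, 5 were called higher in knockout cells and 0 lower, against 5.79% of all tested genes called higher and 4.67% lower. The called genes were Pttg1, Birc5, Aurkb, Mcm2 and Cdc6. In bulk RNA, fewer cells in a cycle phase and less RNA per cell cannot be told apart.

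Pttg1 (chromosome 11, 43420244 to 43427463, mm10) encodes securin, which holds the protease separase inactive until anaphase. It was at 10.5 FPKM in wild type cells with LIF and 59.2 and 111 FPKM in knockout libraries 1 and 2. After LIF removal it was at 8.86 FPKM in wild type cells and 40.8 and 110 FPKM in knockout cells. Every knockout library was far above both wild type libraries, and library 2 was 1.88 times as high as library 1 with LIF and 2.69 times after LIF removal. On the log2 scale the rise came to 2.81, with an SE of 0.37 and a limma adjusted p = 0.00975. In both wild type libraries Pttg1 was the lowest of the 31 genes, and in knockout cells its rank from the highest was 23 and 14 in the libraries with LIF, then 26 and 13. Relative to separase itself (Espl1, 31.9 to 52.5 FPKM), the securin level per length was 0.248 and 0.243 in wild type cells and 1.13, 2.79, 1.12 and 3.44 in knockout cells (libraries 1 and 2 with LIF, then without).

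Birc5 (survivin, chromosome 11, 117849237 to 117855743) and Aurkb (chromosome 11, 69045624 to 69051664) encode subunits of the chromosomal passenger complex, which corrects faulty attachments of chromosomes to the spindle. Birc5 was at 138 FPKM in wild type cells and 207 and 237 FPKM in knockout cells with LIF, and at 135 against 212 and 243 FPKM after LIF removal. All 4 knockout values were above both wild type values, and the log2 rise of Birc5 was 0.71 (SE 0.11, adjusted p = 0.0112). Aurkb was at 61.0 FPKM against 87.7 and 89.0 FPKM with LIF, and at 53.2 against 74.2 and 76.0 FPKM after LIF removal. Here too the groups did not overlap, the 2 knockout libraries of a medium lay close together, and the rise was 0.51 (SE 0.09, adjusted p = 0.0189). Aurka, the spindle pole kinase of the same family on chromosome 2, went from 87.6 to 83.7 and 82.8 FPKM with LIF and from 79.0 to 72.3 and 74.1 FPKM without it, and was not called.

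Cdc6 and Mcm2 were the replication genes called. Cdc6, the licensing ATPase (chromosome 11, 98907709 to 98923942), was at 20.9 FPKM against 28.4 and 31.7 FPKM with LIF and at 21.7 against 30.6 and 28.4 FPKM after LIF removal. The rise of 0.46 (SE 0.11, adjusted p = 0.0409) was the smallest of those called. Mcm2 (chromosome 6, 88883474 to 88898780) was at 104 FPKM against 167 and 144 FPKM with LIF and at 88.7 against 126 and 123 FPKM after LIF removal, a rise of 0.53 (SE 0.10, adjusted p = 0.0208). For both genes all 4 knockout libraries were above both wild type libraries.

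**Figure D1:**
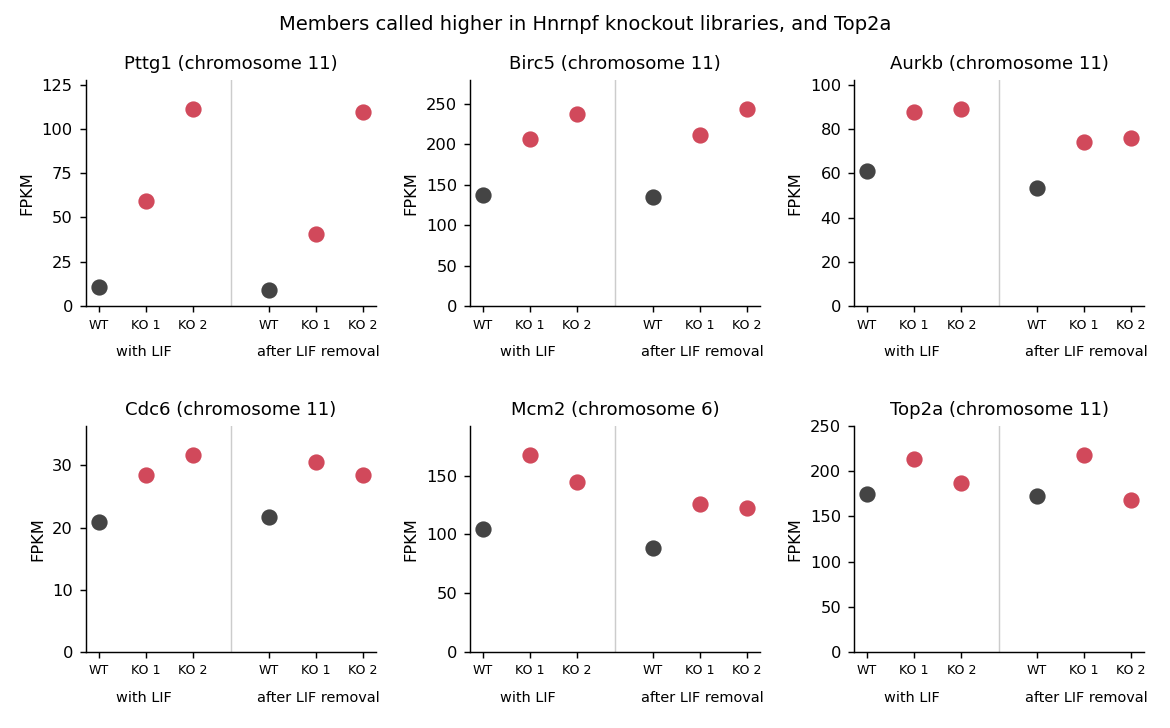
FPKM of the 5 genes called higher in knockout cells and of Top2a in each of the 6 libraries (1 point per library, grey for wild type, red for knockout), with LIF on the left and after LIF removal on the right of each panel. For the 5 called genes every knockout point is above both wild type points, while the 4 Top2a knockout points (168 to 218 FPKM) reach below the wild type points (173 and 175 FPKM).

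Leaving out a wild type library could not test the calls, because genotypes are then compared in 1 medium only, against 1 wild type library. The differences of the called genes stayed above wild type. Without the wild type library with LIF they were 2.79 (Pttg1), 0.74 (Birc5), 0.49 (Aurkb), 0.48 (Mcm2) and 0.425 (Cdc6). Without the wild type library after LIF removal they were 2.83, 0.68, 0.53, 0.57 and 0.50, in the same order. Leaving out any 1 of the 4 knockout libraries ended the call of Cdc6 (adjusted p = 0.0598 to 0.103), and Aurkb was not called without knockout library 2 with LIF (adjusted p = 0.0527).

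The called genes lay in parts of the genome where other genes were higher too. Of the 5, 4 lie on chromosome 11, where 366 of 1009 tested genes (36.3%) were called higher in the same comparison and the median gene was 0.42 to 0.48 higher in each of the 4 knockout libraries. Mcm2 lies on chromosome 6 between 50 and 100 Mb, a stretch whose bounds come from earlier results of these data, with medians of 0.50 to 0.68 and 92 of 183 genes called higher. Set against the tested genes within 5 Mb, Cdc6 stood at 0.462 and its 187 neighbours at a median of 0.477. Mcm2 (0.528) stood below its 67 neighbours (0.632), and Aurkb (0.509) near its 120 neighbours (0.442). Birc5 was 0.28 above the median of its 145 neighbours (0.428). Pttg1 was 2.31 above the median of its 18 neighbours (0.501).

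Top2a, the DNA topoisomerase that untangles sister chromatids, lies on chromosome 11 close to Cdc6 and was not called. Its level was 175 FPKM against 214 and 187 FPKM with LIF and 173 against 218 and 168 FPKM after LIF removal. At 0.17, it was 0.32 below the median of its 186 neighbours (0.487), 71 of which were called higher. With each gene's log2 values centred on its neighbours within 5 Mb, an alternative chosen after seeing the data, 1 of the 31 genes was called, Pttg1 (2.295, SE 0.36, adjusted p = 0.0177). Over all genes that fit called 274 higher and 350 lower, against 682 and 550 without centring. Centring by chromosome also left 1 call, Pttg1 (2.35, SE 0.34, adjusted p = 0.0122). Across the 31 genes, the knockout effect and the median effect of the neighbours had a Pearson correlation of 0.677 and a Spearman correlation of 0.609. Without Pttg1 the values were 0.826 and 0.569 (n = 30). These describe genes in the same 6 libraries, some of which share neighbours, and carry no test.

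**Figure D2:**
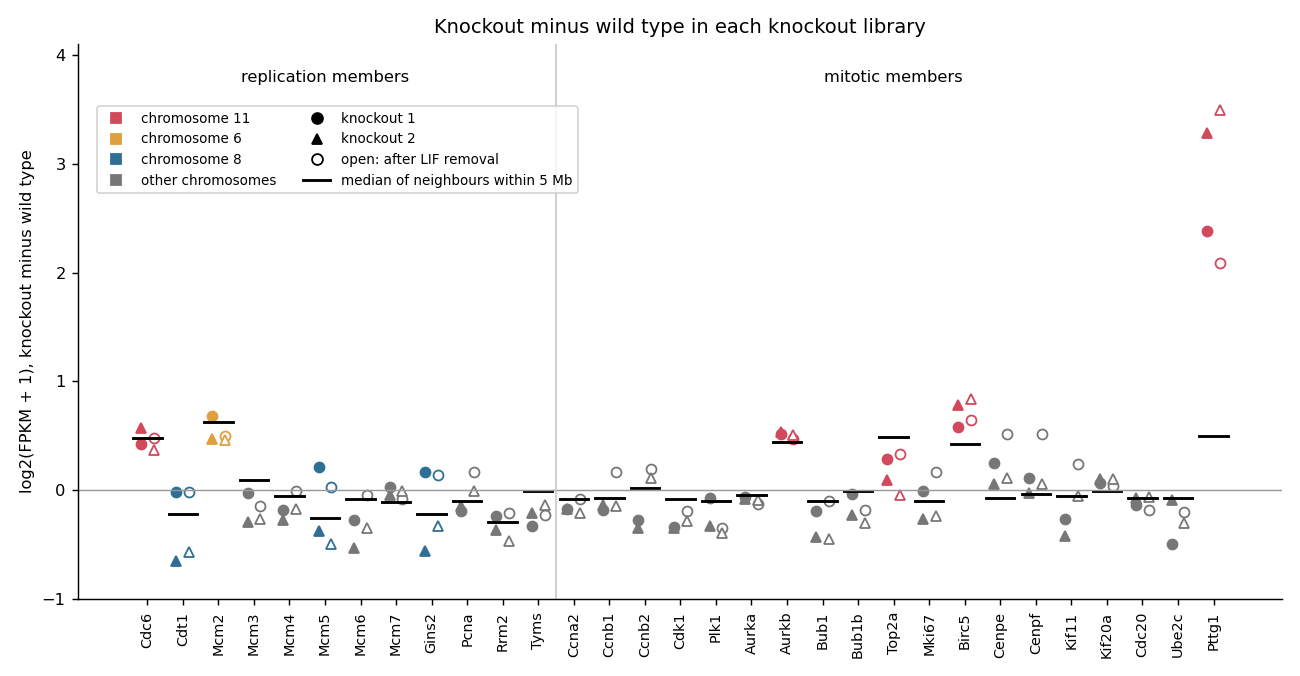
Knockout minus wild type in log2(FPKM + 1) for each gene in knockout library 1 (circles) and 2 (triangles), filled with LIF and open after LIF removal, coloured by chromosome, with a black bar at the median effect of the tested genes within 5 Mb. Genes of chromosomes 11 and 6 have raised bars. Cdc6, Aurkb and Mcm2 lie near theirs, Top2a is 0.32 below, Birc5 0.28 above and Pttg1 2.31 above. The chromosome 8 genes are low only in the triangles.

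Away from chromosomes 6, 8 and 11 the picture was one of small shifts. The 5 called genes lie on chromosomes 11 and 6, in parts that were higher in these same data. That none of the 22 genes elsewhere was called (lowest adjusted p = 0.100) follows from this split. Of the 22, 3 had an unadjusted p under 0.05 (limma), beside 2219 of 9566 tested genes placed there. A difference below 0 was seen for 19 of the 22 and above 0 for 3, with a median of -0.14. The split had set apart Mcm2 and 5 genes of chromosome 11, all above 0, and 3 of chromosome 8, all below 0. The 9566 tested genes placed off chromosomes 6, 8 and 11 had a median of -0.06, and 41.1% of them were above 0. Over all 31 genes the median was -0.11, with -0.16 for the replication and -0.08 for the mitotic genes, and the 26 uncalled genes ranged from -0.32 to 0.23. All tested genes had a median of -0.04. After quantile normalization 28 of the 31 kept their sign, and the median was -0.05.

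In 6 of the 31 genes all 4 knockout libraries lay above both wild type libraries, against 11.9% of tested genes, and in 5 they lay below, against 13.0%. The first set holds the 5 called genes and Kif20a, a kinesin of cytokinesis, which moved only from 60.3 to 63.2 and 65.0 FPKM with LIF and from 61.8 to 63.5 and 66.5 FPKM without it (0.08 on the log2 scale). The second set holds Cdk1, Plk1, Bub1, Tyms and Mcm4, none of them called. Cdk1, the mitotic cyclin-dependent kinase, was at 48.7 FPKM against 38.2 and 38.1 FPKM with LIF and 45.3 against 39.7 and 37.2 FPKM after LIF removal (-0.29, SE 0.10, adjusted p = 0.118). Plk1, the Polo-like kinase of mitotic entry, was at 125 FPKM against 119 and 99.6 FPKM and at 124 against 97.2 and 94.3 FPKM (-0.28, adjusted p = 0.146). Neither of these falls passed in the knockout comparison.

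Bub1, a kinase of the spindle checkpoint, was at 63.4 FPKM against 55.3 and 46.7 FPKM with LIF and 60.1 against 55.9 and 43.8 FPKM after LIF removal (-0.29, adjusted p = 0.197). Tyms, the thymidylate synthase that makes dTMP, was at 22.2 FPKM against 17.5 and 19.1 FPKM and at 21.8 against 18.4 and 19.8 FPKM (-0.22, adjusted p = 0.261). Among the 4 knockout libraries, the checkpoint kinase was lowest in the libraries numbered 2 and the synthase in those numbered 1. The widest fall of an uncalled gene was that of Rrm2, the small subunit of ribonucleotide reductase (-0.32, SE 0.11, adjusted p = 0.100).

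With each medium taken alone, the comparison has 2 knockout libraries against 1 wild type library, which is assumed to vary like the knockout libraries, and few genes could be called. With LIF, 0 of the 31 genes passed (limma), against 0.0424% of all tested genes. An unadjusted p under 0.05 was found for 5 of the 31 and for 1972 of 11785 tested genes. After LIF removal 0 passed, against 0.0594%, and the unadjusted p was under 0.05 for 5 of the 31 and for 1826 of 11785. The 5 widest differences were those of the same 5 genes in both media. Pttg1 was 2.83 higher with LIF (SE 0.58, adjusted p = 0.108) and 2.79 higher after LIF removal (adjusted p = 0.145). For Birc5 the differences were 0.68 and 0.74, for Aurkb 0.53 and 0.49, for Mcm2 0.57 and 0.48, and for Cdc6 0.50 and 0.43, with LIF first.

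Whether the knockout effect differed between the media was tested with an interaction term. The difference of the effects (after LIF removal minus with LIF) was called for 0 of the 31 and for 0.0% of all tested genes, with 0 of the 31 and 340 of all genes at an unadjusted p under 0.05. The widest was that of Ccnb2, cyclin B2 (0.46, SE 0.21, adjusted p = 1.0), which was 0.784 to 0.828 times wild type in knockout cells with LIF and above wild type in both knockout libraries after LIF removal. Kif11, the kinesin that pushes spindle poles apart, came next (0.44, adjusted p = 1.0), at 55.4 FPKM against 46.2 and 41.1 FPKM with LIF and 47.1 against 55.8 and 45.5 FPKM without it. Pcna, the sliding clamp of DNA polymerases, was at 204 against 179 and 185 FPKM with LIF and at 181 against 204 and 180 FPKM without it, so that its groups overlapped. Cenpf, a kinetochore protein, was at 16.9 against 18.4 and 16.6 FPKM and at 16.6 against 24.2 and 17.3 FPKM, with 1 high library, knockout library 1 after LIF removal.

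The 6 subunits of the MCM ring, which sit in it in equal number, kept no fixed proportion in their transcripts. In wild type cells Mcm2 was the lowest subunit per length, at 0.519 and 0.536 of the median of the other 5 with and without LIF. In knockout cells that ratio was 0.829, 0.963, 0.778 and 1.04, in libraries 1 and 2 with LIF and then 1 and 2 without it. The median of the other 5 was lower in library 2 (202 and 150 FPKM, then 162 and 117 FPKM), where it was the value of Mcm5. Mcm2 was also lower in library 2 (167 and 144 FPKM, then 126 and 123 FPKM). The higher ratios of library 2 thus come from the lower median of the others. Mcm4 was the lowest subunit in all 4 knockout libraries. Mcm4 itself was at 121 FPKM against 107 and 99.7 FPKM with LIF and 114 against 113 and 101 FPKM after LIF removal (-0.16, not called). Mcm6 was at 200 FPKM against 166 and 139 FPKM with LIF and 141 against 137 and 110 FPKM after LIF removal (-0.30, adjusted p = 0.182). Mcm7 stayed the highest subunit in all 6 libraries.

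**Figure D3:**
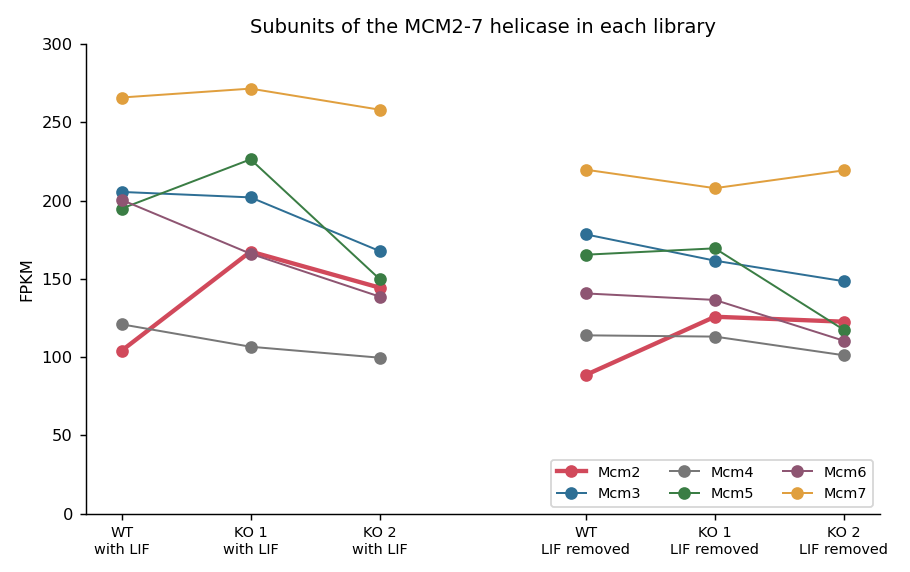
FPKM of the 6 MCM subunits in each library, with LIF on the left and after LIF removal on the right. Lines join the 3 libraries of a medium only to show which points belong to a subunit. Mcm2 (thick red) is the lowest in both wild type libraries and above Mcm4 in all 4 knockout libraries, and Mcm5 drops in both knockout libraries numbered 2.

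The 2 knockout numbers differed for the 3 genes of chromosome 8, all of them replication genes. Cdt1, which brings the MCM ring to the origin (chromosome 8, 122568015 to 122573130), was at 202 FPKM in wild type cells and 200 and 128 FPKM in knockout libraries 1 and 2 with LIF, and at 131 against 129 and 88.2 FPKM after LIF removal. Mcm5 (75109468 to 75128439) was at 195 FPKM against 226 and 150 FPKM with LIF and at 165 against 169 and 117 FPKM after LIF removal. Gins2, a GINS subunit (120581266 to 120589075), was at 98.4 FPKM against 111 and 66.4 FPKM with LIF and at 69.5 against 76.5 and 55.2 FPKM after LIF removal. In each, library 1 was near or above wild type and library 2 was below it. The median of the 3 was 0.17 and 0.035 in library 1 and -0.56 and -0.49 in library 2, with and without LIF. The 661 tested genes of chromosome 8 had medians of 0.08 and -0.05 in library 1 and of -0.345 and -0.394 in library 2.

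More broadly, 19 of the 31 genes were lower in library 2 than in library 1 in both media and 6 were higher in both, against 29.6% and 31.2% of all tested genes. Of the replication genes off chromosome 8, 5 of 9 were lower in both media, and of the mitotic genes 11 of 19. The median difference was -0.10 with LIF and -0.13 after LIF removal over the 31 genes, and 0.005 and 0.006 over all tested genes. With 1 library of each number per medium, these values describe the libraries and were not tested.

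Removal of LIF for 4 days was compared over both genotypes, 3 libraries against 3. Of the 31 genes 1 was called lower, Mcm7, and 0 higher, against 12.7% and 8.73% of all tested genes. An unadjusted p under 0.05 (limma) was found for 9 of the 31 and for 4334 of the 11785 tested genes. The replication genes had a median of -0.29 and the mitotic genes of -0.05, beside -0.04 over all tested genes; after quantile normalization the medians were -0.19 and 0.06, so that of the mitotic genes turned. The ESC marker sum was lower in the same libraries (2313 to 1457 FPKM in wild type cells), and its part in these values was not tested.

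Mcm7 was at 266, 271 and 258 FPKM with LIF, in wild type and knockout libraries 1 and 2, and at 220, 208 and 219 FPKM after LIF removal. The 3 libraries without LIF lay below all 3 with it, and the log2 difference was -0.30 (SE 0.09, adjusted p = 0.0438). The gene overlaps Ap4m1 and 3 microRNA genes in the annotation, and whether counting used strand is not given. The call was narrow: with any 1 of the 6 libraries left out Mcm7 was no longer called (adjusted p = 0.0905 to 0.141), and the same was so after quantile normalization (-0.185, adjusted p = 0.168) and median ratio scaling (-0.26, adjusted p = 0.0687). Centring each library by chromosome gave -0.223 (adjusted p = 0.114), and centring on neighbours within 5 Mb gave -0.07 (adjusted p = 0.6). Without the filter on low values the adjusted p was 0.0633, and without the intensity trend 0.102.

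The widest differences after LIF removal were those of Cdt1 (-0.59, SE 0.19, adjusted p = 0.0602), Gins2 (-0.43, adjusted p = 0.155), Ccnb2 (-0.39, adjusted p = 0.0512), Mcm6 (-0.37, adjusted p = 0.0637) and Mcm5 (-0.33, adjusted p = 0.226). None passed in this fit. After centring by chromosome, Cdt1, Gins2, Ccnb2 and Mcm6 were called lower, beside 1320 of 11774 tested genes. With the replicate number taken as a block, 8 of the 31 genes were called lower, beside 2055 of all 11785 tested genes. These were Cdt1, Gins2, Ccnb2, Mcm2, Mcm5, Mcm6, Mcm7 and Rrm2. The labels do not say that a number marks a clone. Ccnb2 was at 123, 102 and 96.5 FPKM with LIF and 75.8, 86.7 and 81.9 FPKM without it, so the media did not overlap. In all, 3 of the 31 genes (Mcm7, Ccnb2 and Aurka) had every library without LIF below every library with it, against 16.8% of tested genes, and 0 had the reverse, against 14.9%. Cdc6, Tyms, Mcm4 and Pcna were the replication genes with the smallest differences (0.00, 0.03, 0.01 and -0.01).

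In wild type cells alone, 1 library against 1, 0 of the 31 genes differed by a log2 of 1, against 3.8% of tested genes higher and 4.56% lower. There, 11 of 12 replication genes were lower after LIF removal (median -0.23) and 15 of 19 mitotic genes (median -0.08, or 0.02 after quantile normalization). The 5 widest were Ccnb2 (-0.69), Cdt1 (-0.62), Mcm6 (-0.51), Gins2 (-0.50) and Ube2c (-0.33). Ube2c was at 410, 291 and 386 FPKM with LIF and 326, 284 and 265 FPKM after LIF removal, with overlap between the media. In knockout cells, 2 of the 31 genes and 3239 of 11785 tested genes had an unadjusted p under 0.05 (limma). There, 0 of the 31 genes were called, against 3.05% of tested genes higher and 3.88% lower. Their medians were -0.30 for the replication genes and -0.04 for the mitotic genes (0.06 after quantile normalization). The comparisons of the media share no libraries between the genotypes. The 5 widest in knockout cells were Cdt1 (-0.58), Gins2 (-0.40), Mcm5 (-0.38), Mcm2 (-0.32) and Mcm7 (-0.31). Mcm7 (SE 0.11, limma adjusted p = 0.141) and Mcm2 (adjusted p = 0.167) had the lowest p there.

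**Figure D4:**
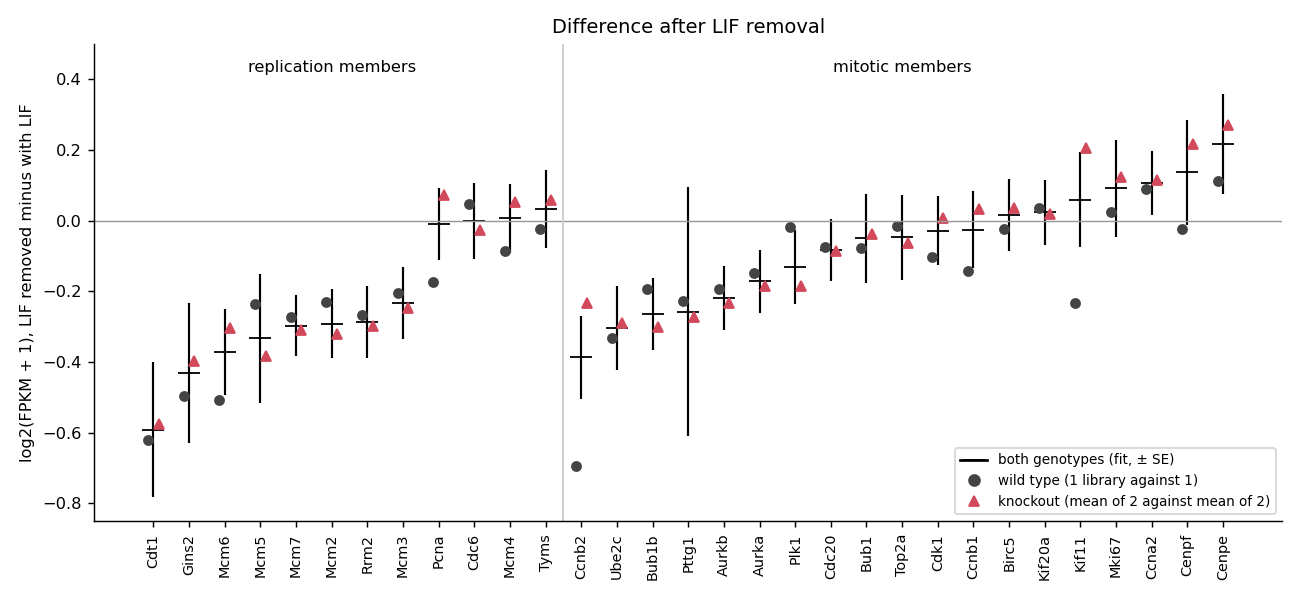
Difference in log2(FPKM + 1) after LIF removal for each gene: the fit over both genotypes (black bar with its SE), the wild type libraries (grey circle, 1 against 1) and the mean of the knockout libraries (red triangle, 2 against 2). The median is -0.29 for the replication genes and -0.05 for the mitotic genes (0.06 for these after quantile normalization), with Cdc6, Tyms, Mcm4 and Pcna near 0.

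The other genes of these pathways were read from 9 lists with 158 genes, of which 157 were tested. In knockout cells, 7 (4.46%) were called higher and 10 (6.37%) lower over both media, beside 5.79% and 4.67% of all tested genes. Of the 7 higher, 5 lie on chromosome 11 and 1 on the stretch of chromosome 6. Those were Rpa1 (0.42, adjusted p = 0.0324), which coats single-stranded DNA, the kinetochore gene Mis12 (0.70), the spindle genes Kif18b (0.67) and Hmmr (0.47), Cdc27 of the anaphase-promoting complex (0.69), and on chromosome 6 the checkpoint gene Mad2l1 (0.68). The remaining one was Ccnd1, cyclin D1 (0.635, adjusted p = 0.0290), on chromosome 7. It was at 26.0 FPKM against 37.9 and 45.4 FPKM with LIF and 28.1 against 49.5 and 38.4 FPKM without it.

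The 10 genes called lower in knockout cells came from the lists of CDK inhibitors, G1/S regulators, origin firing, fork and nucleotide genes, and cohesin. Of the 6 tested CDK inhibitors 2 were lower, Cdkn1c (p57; -1.60, adjusted p = 0.0128) and Cdkn1b (p27; -0.80, adjusted p = 0.0202). Cdkn1b fell from 29.8 FPKM to 15.6 and 12.6 FPKM with LIF and from 25.5 to 16.8 and 17.1 FPKM without it. Of 23 genes of the G1/S list, E2f1 (-0.65, adjusted p = 0.0246) and Cdk4 (-0.47, adjusted p = 0.0494) fell. Of 27 fork and nucleotide genes 4 fell, led by Pola2 (-0.57), a subunit of the DNA polymerase alpha-primase complex, and the thymidine kinase Tk1 (-0.56). Tk1 lies on chromosome 11 among genes with a raised median. Cdc7 (-0.47), the kinase that fires origins, and the cohesin gene Smc1a (-0.50) were the other named falls. Of the 14 genes of mitotic entry, none was called (limma, 1 at an unadjusted p under 0.05, beside 3259 of 11785 tested genes).

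After LIF removal, 24 of the 157 genes (15.3%) were called lower and 6 (3.82%) higher over both genotypes, beside 12.7% and 8.73% of all tested genes. The fork and nucleotide list had 8 of 27 lower and 0 higher, with a median of -0.20, led by the polymerase delta subunits Pold1 (-0.63, adjusted p = 0.00508) and Pold2 (-0.84, adjusted p = 0.00679). Among transcription factors of the cycle, Mybl2 (B-Myb, which joins MuvB at mitotic genes) went from 200 to 73.8 FPKM in wild type cells and from 159 and 150 to 68.8 and 60.6 FPKM in knockout cells, a fall of -1.31 (SE 0.10, adjusted p = 0.000923). E2f2 (-1.24, adjusted p = 0.0017) and E2f1 (-0.82, adjusted p = 0.00501) also fell, and E2f1 was at 34.3, 23.3 and 18.4 FPKM with LIF and 17.96, 11.75 and 11.49 FPKM without it. For Mybl2 and E2f1 the 3 libraries without LIF lay below the 3 with it. The E2F genes did not move one way: E2f6 (0.50, adjusted p = 0.0166) and E2f7 (0.57, adjusted p = 0.0274), both repressors of the family, rose. Of the 23 genes of the G1/S list 4 were called higher (E2f6, E2f7, Cdk6 at 0.81 and cyclin E2, Ccne2, at 0.84) and 3 lower (E2f1, E2f2 and cyclin D3, Ccnd3, at -0.68). Those beyond E2f1 and E2f2 were named after their values were seen, to complete the list's count.

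Among the remaining lists, the kinetochore genes Cenpm (-0.99) and Spc24 (-0.71), the inhibitory kinase gene Pkmyt1 (-0.78), the cytokinesis gene Cep55 (-0.67), Fzr1 (-0.58) and Anapc5 (-0.43) of the anaphase-promoting complex and the GINS gene Gins1 (-0.44) fell after LIF removal. So did the inhibitors Cdkn2a (-0.67) and Cdkn2d (-0.53). The spindle gene Ckap2 (0.47) and the cohesin gene Stag2 (0.62) rose. In knockout cells alone 2 of the 157 (1.27%) were called higher and 9 (5.73%) lower, beside 3.05% and 3.88% of all tested genes. Among them were Mybl2 (-1.25, adjusted p = 0.0166), E2f2 (-1.23, adjusted p = 0.0224), Pkmyt1 (-0.85), Cenpm (-0.996), Cenpa (-0.62), Uhrf1 (-0.69), Pold2 (-0.87) and Stag2 (0.64). Cdk6 was called higher there (1.02, adjusted p = 0.0333). With each medium alone, the knockout effect was called for 0 of the 157. The unadjusted p (limma) was under 0.05 for 18 and 25 of them with and without LIF, beside 1972 and 1826 of 11785 tested genes.

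Some values carry limits of the gene models. In the annotation 6 of the 31 genes (Mcm7, Gins2, Ccna2, Aurka, Kif20a and Cdc20) overlap another gene of the table, on either strand. Reads from the shared stretch may not be told apart. Named pseudogenes exist for 4 (Pcna, Tyms, Ccnb1 and Ccnb2), so their levels are uncertain; Tyms-ps itself was at 0.525 FPKM or less.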

How the data were processed

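The authors deposited 1 table of FPKM, with 1 value per gene symbol for each of 6 libraries (sums of 456155 to 556318 FPKM). STAR, Cufflinks and build mm10 are named per the submitters' processing notes; versions, annotation and strand setting were not given in the sources used here. Tests used limma 3.58.1 in R 4.3.3 (empirical Bayes with intensity trend, two-sided) on log2(FPKM + 1), which understates the change of low genes, for the 11785 genes averaging 1 FPKM or more. Effects over both media or genotypes came from a fit of genotype and medium, with 3 residual and 5.08 prior degrees of freedom; a fit of 4 groups (2 residual and 4.7 prior) gave the others. Wild type cells were compared between media by a log2 difference of 1, without a test. The scripts were tested on simulated data. The genes and lists were chosen with earlier results of these data known. Values were given by rule for genes past the threshold, the 5 widest differences per comparison and genes whose wild type and knockout libraries did not overlap, and from each other list for up to 2 called genes with the lowest p. Top2a, Rrm2, Aurka and Espl1 were added after their values were seen. Alternatives changed the pseudocount, filter, scaling, centring, trend, block and libraries used.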

Additional observations from a re-analysis of the deposited data

How the results depend on the processing

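The 5 genes called higher in knockout cells over both media were 3 without a filter on low values, 3 without the intensity trend, 1 with centring by chromosome and 1 with centring on neighbours within 5 Mb (chosen after seeing the data). Under the last, Cdc6 went to -0.001 and Mcm2 to -0.091. With single libraries left out the count ranged from 0 to 4, and it was 3 without knockout library 2 with LIF; the cause of these losses was not tested, beyond the loss of a medium when a wild type library is left out. The 1 gene called after LIF removal became 0 without a filter, 0 with quantile normalization, 0 with median ratio scaling, 0 without the trend, 5 with centring by chromosome (Ccnb2, Cdt1, Gins2, Mcm6 and Rrm2) and 4 with centring on neighbours (Ccnb2, Cdt1, Mcm3 and Rrm2), neither set holding Mcm7, and 0 to 2 with single libraries left out; the cause was not tested. Taking the replicate number as a block, without knowing from the labels that it marks a clone, gave 8 genes lower after LIF removal over both genotypes (Ccnb2, Cdt1, Gins2, Mcm2, Mcm5, Mcm6, Mcm7 and Rrm2) and 2 in knockout cells (Cdt1 and Mcm5). Deviations of libraries with the same number correlated at 0.366 over all genes and 0.82 over the 31, with 2 pairs only; wild type libraries share no number with them, so the knockout effect had no such fit. Of 2635 values of single genes under the alternatives, 37 lost a call, 23 gained one, 2 that were called turned, and 184 that were called in neither fit changed sign. Among all genes, the 1232 calls of knockout over both media became 335 without a filter, 648 with centring by chromosome and 624 with centring on neighbours, and 5 to 990 with single libraries left out. The 2523 calls of LIF removal over both genotypes ranged from 799 to 3516, and the 816 in knockout cells from 0 to 2615. The other comparisons called 0 of the 31 genes under each other alternative run. For LIF removal over both genotypes, centring by chromosome called 1320 of 11774 tested genes lower, and centring on neighbours 1309 of 11662. Scaling moved the median of all genes in a library by -0.0499 to 0.0237 (log2).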
